A study of Mus musculus with 4 samples.

Results

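The first lineage decision of the mouse embryo separates the trophectoderm, the outer epithelium that builds the placenta, from the inner cell mass, the source of embryonic stem (ES) cells. The 10 genes described here, Tead4, Cdx2, Eomes, Tfap2c, Esx1, Rhox6, Rhox9, Krt8, Krt18 and Krt19, are associated with the trophectoderm or its placental descendants by their known roles. They were chosen by name with earlier results of these data known, and each matched 1 of the 50600 gene rows of the deposited table. In the embryo, TEAD factors with the coactivator YAP switch on Cdx2 in outer cells, and Cdx2 and Eomes then hold the trophoblast programme while the outer cells build a keratin-lined epithelium. ES cells normally keep this programme low, and loss of the pluripotency factor Oct4 releases it.

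RNA-seq libraries were made from OG2ES cells, a mouse ES cell line, in 2 groups that both grew in mES medium plus 2i, a combination of kinase inhibitors that keeps ES cells naive. The Myh9 KO group comprised 2 libraries of cells deficient in Myh9, the gene of the non-muscle myosin IIA heavy chain. The WT group comprised 2 libraries of wild-type OG2ES cells. The series asks whether the altered colony shape of Myh9-deficient cells goes with a change of pluripotency, and the comparison below gives the trophectoderm side of that question. The labels give neither the kind of Myh9 lesion nor the number of clones, so a property of the KO line and an effect of Myh9 loss cannot be told apart. They also do not say that replicates were separate cultures, so p-values measure library-to-library spread that may be technical.

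Values are whole-number scores that the authors had normalized, with sums of 992245 and 992317 in the Myh9 KO libraries and 992128 and 992098 in the WT libraries. Read depth is unknown. Myh9 itself had values of 9 and 9 in Myh9 KO cells, against 83 and 100 in WT cells (log2 fold change -3.20, SE 0.12, limma adjusted p = 0.00675), which is the direction the labels give. Its adjusted p was 0.0675 without Myh9 KO 1 and 0.0709 without Myh9 KO 2. Pou5f1, which codes for Oct4, stood at 3104 and 3189 in Myh9 KO cells and 3045 and 3122 in WT cells. The summed value of 8 ES cell markers was 8308 and 8110 in Myh9 KO cells and 9518 and 9759 in WT cells, and their median log2 fold change was -0.01. Without Dppa5a the sum was 4870 and 4905 in Myh9 KO cells and 4763 and 4918 in WT cells. Of the 8, Sox2 and Dppa5a fell, and Zfp42 and Klf4 were called higher with random decimals alone (adjusted p = 0.00301 and 0.0482). Zfp42 (log2 fold change 0.465) lies on chromosome 8, where the median of 646 tested genes was 0.207 and 12.7% were called higher. The part of that shift in the Zfp42 value was not tested. Sox2 lost its call with any library left out (adjusted p of 0.0696 to 0.109), and Dppa5a without WT 1 (0.168) or WT 2 (0.176). Elf5, Krt7 and Hand1, defining markers of trophoblast, were listed at 0 in every library. Mki67, a marker of dividing cells, and the widely expressed kinase gene Rock1 also had a listed 0 throughout, so a 0 is not read as absence of the transcript. In bulk RNA, more cells of a type and more RNA per cell cannot be told apart.

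Of the 10 genes, 3 rose in Myh9 KO cells, namely Eomes, Esx1 and Krt18, and 0 fell. A gene was called when its Benjamini-Hochberg adjusted p over all 11231 tested genes was under 0.05 in a limma fit on log2(value + 1) and also in the same fit after random decimals were added to every value. By this rule 5.14% of all tested genes were higher and 5.79% lower, against 3 and 0 of the 10. The 3 became 1 without Myh9 KO 1, Myh9 KO 2 or WT 1, and 2 without WT 2. Deposited values alone gave 4 of the 10 higher (7.17% of all tested genes higher and 7.96% lower), and random decimals alone also gave 4 (11.1% higher and 12.1% lower). Both Myh9 KO values lay above both WT values in 7 of the 10 genes, against 26.2% of all tested genes, and 0 had both below, against 27.3%. The groups overlapped in Krt19, Tfap2c and Rhox9. The median log2 fold change was 0.39 over the 10 genes and 0.00 over all tested genes. Because the 10 were chosen with earlier results known, these shares describe them and are not a test of the group. All 10 passed the filter on low values, and none did so through one group alone, since the lowest WT mean was 2.0.

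**Figure D1:**
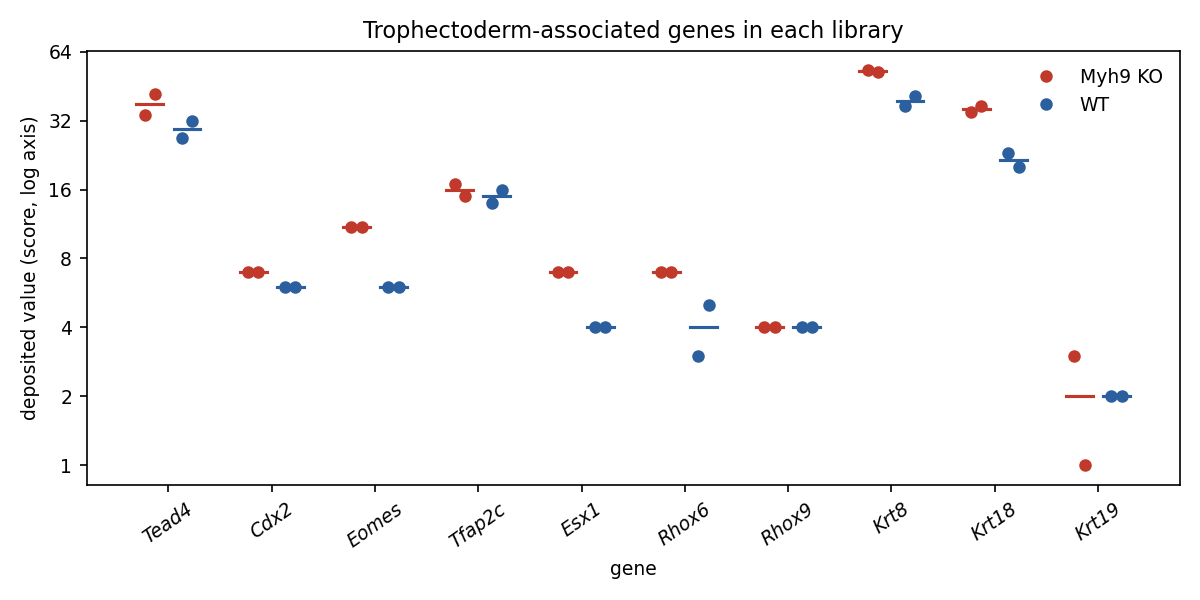
Deposited values (score, log axis) of the 10 genes in each library, with Myh9 KO left of WT for each gene. Points are libraries and bars are means of 2. Eomes, at 11 and 11 in Myh9 KO and 6 and 6 in WT, shows the widest gap of the genes with equal replicates, and Tfap2c, Rhox9 and Krt19 overlap.

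Tead4, the TEA-domain factor at the head of the trophectoderm pathway (ENSMUSG00000030353, mm10 chromosome 6, 128224288 to 128300823, minus strand), had values of 34 and 42 in Myh9 KO cells and 27 and 32 in WT cells. Both Myh9 KO libraries were above both WT libraries, yet its log2 fold change was 0.35 (SE 0.17), which was not called (adjusted p = 0.286 in limma and 0.08 with random decimals). The 95% interval of its fold ran from 0.853 to 1.91. Tead4 lies on chromosome 6, where the median log2 fold change of 555 tested genes was 0.45 and 30.5% of genes were called higher. With the median of its chromosome subtracted, Tead4 had a log2 fold change of -0.10 (adjusted p = 0.742). The part of the chromosome-wide shift in the Tead4 value was not tested beyond this subtraction.

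Cdx2, the homeobox factor that specifies trophectoderm and opposes Oct4 (ENSMUSG00000029646, mm10 chromosome 5, 147300805 to 147307270, minus strand), had values of 7 and 7 in Myh9 KO cells and 6 and 6 in WT cells. The groups did not overlap, but they differed by 1 unit of a scale whose decimals were dropped. Whether they were rounded or cut off is not stated. Limits that allow both at once put the ratio of means between 0.929 and 1.45, wider than either alone. If all were rounded, or all cut off, Myh9 KO values of 7 could not lie below WT values of 6. The fit on the deposited values called Cdx2 higher (log2 fold change 0.19, SE 0.02, adjusted p = 0.0359), whereas the fit with random decimals did not (adjusted p = 0.416). The small SE reflects equal whole numbers in both pairs of replicates, a feature of 9.2% of all tested genes.

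Eomes, the T-box factor that maintains trophoblast stem cells and also acts in mesendoderm (ENSMUSG00000032446, mm10 chromosome 9, 118478212 to 118486132, plus strand), had a value of 11 in both Myh9 KO libraries and of 6 in both WT libraries. It rose, with a ratio of means of 1.83 that the unknown decimals limit to between 1.5 and 2.18. On the log2(value + 1) scale the fold change was 0.78 (SE 0.02, adjusted p = 0.00406 in limma and 0.00753 with random decimals). Equal whole numbers in replicates make this SE small. Eomes stayed called with any single library left out (adjusted p of at most 0.0397). Each such fit leaves 1 group with a single library, assumed to vary like the other group, and equal replicates keep the fold the same by construction. The median of the 653 tested genes of chromosome 9 was 0.00. The predicted gene Gm33460 overlaps an exon of Eomes on the opposite strand. The library protocol marks no strand, so reads from the overlap cannot be assigned to either gene. Of the 50-base words of Eomes, 2.1% occur in other genes on either strand.

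Since Eomes is also a primitive streak gene, the markers of that lineage were set beside it. T, the brachyury gene, had values of 3 and 2 in Myh9 KO cells and 1 and 1 in WT cells (limma adjusted p = 0.11). Mixl1, Tbx6 and Mesp1 were listed at 0 in every library, and the summed value of 6 streak and mesoderm markers was 4 and 4 in Myh9 KO cells and 4 and 3 in WT cells. Primitive endoderm markers summed to 8 and 8 in Myh9 KO cells and 2 and 4 in WT cells over 8 genes, with Gata6, Sox7, Foxa2, Pdgfra and Amn listed at 0 throughout and none called by both fits. Gata4, a primitive endoderm factor, had 5 and 5 in Myh9 KO cells and 1 and 2 in WT cells and was called with random decimals alone (adjusted p = 0.0088, and 0.092 on deposited values). Both fits called Gata4 higher under median ratio scaling (0.0348), with GC content bins centred (0.0222) and without WT 2 (0.012). The part of such cells in the Eomes values was not tested. The 10 feeder fibroblast markers summed to 5 and 7 in Myh9 KO cells and 4 and 6 in WT cells, and Col1a1, Col1a2, Col3a1, Dcn, Lum, Postn and S100a4 were listed at 0 in every library.

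Tfap2c, the AP-2 gamma factor that works in trophoblast stem cells (ENSMUSG00000028640, mm10 chromosome 2, 172549593 to 172558622, plus strand), had values of 17 and 15 in Myh9 KO cells and 14 and 16 in WT cells. The groups overlapped and the estimated log2 fold change was 0.09 (SE 0.11, adjusted p = 0.628 in limma). The 95% interval of its fold, 0.814 to 1.39, leaves room for a change in either direction.

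**Figure D2:**
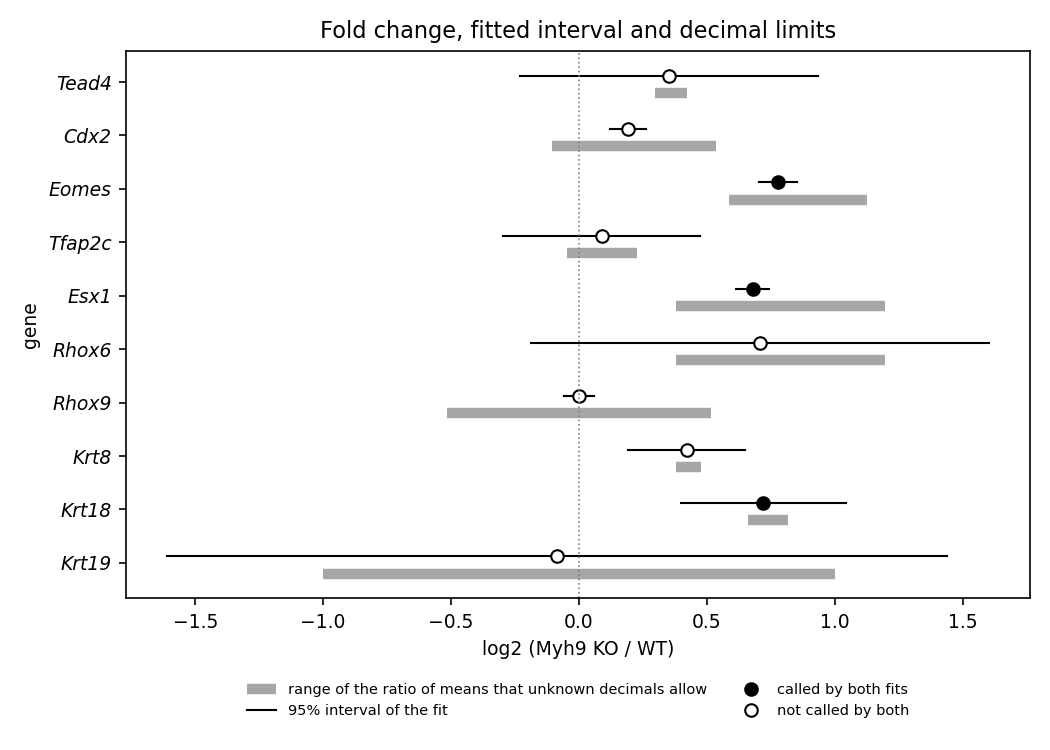
Log2 fold change of each gene, Myh9 KO over WT, in a limma fit on log2(value + 1) with n = 2 per group. Points with thin bars are estimates with 95% intervals, filled where both fits called the gene. Thick grey bars are outer limits of the plain ratio of means, allowing rounded and cut decimals at once. The grey bars of Cdx2, Tfap2c, Rhox9 and Krt19 cross 0, those of Cdx2 and Tfap2c only because both are allowed at once. Grey bars of Eomes, Esx1 and Krt18 lie above 0, as do those of Krt8, Tead4 and Rhox6, which were not called by both fits.

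Of the 10 genes 3 are X-linked homeobox genes of placental trophoblast, and 1 of them was called higher. By the same rule 5.14% of all tested genes and 2.6% of those on chromosome X were higher. Esx1, a paired-like homeobox gene needed for normal placental growth (ENSMUSG00000023443, mm10 chromosome X, 137115397 to 137122083, minus strand), had values of 7 and 7 in Myh9 KO cells and 4 and 4 in WT cells. Esx1 rose by 0.68 on the log2 scale (SE 0.02, limma adjusted p = 0.00406, and 0.0311 with random decimals). The outer limits from the decimals put its ratio of means, 1.75, between 1.3 and 2.29. The small SE again reflects equal whole numbers in replicates. With random decimals this call was lost when any 1 library was left out, with adjusted p of 0.0538 without Myh9 KO 1, 0.0656 without Myh9 KO 2, 0.103 without WT 1 and 0.0999 without WT 2.

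Rhox6, a reproductive homeobox gene of placenta and gonad (ENSMUSG00000006200, mm10 chromosome X, 37826910 to 37829857, plus strand), had values of 7 and 7 in Myh9 KO cells and 3 and 5 in WT cells. Its groups were also separate, and its ratio of means equalled that of Esx1, but the WT replicates differed and it was not called (log2 fold change 0.71, SE 0.26, adjusted p = 0.199 in limma and 0.0551 with random decimals). Without WT 2 it was called, at a log2 fold change of 1.00 and an adjusted p of 0.0306. It was not called without WT 1 (log2 fold change 0.42, adjusted p = 0.274), Myh9 KO 1 (0.456) or Myh9 KO 2 (0.488), each p being the larger of both fits. Rhox9, its close relative in the same cluster (ENSMUSG00000068048, mm10 chromosome X, 37899097 to 37901770, minus strand), had a value of 4 in all 4 libraries. The outer limits from the decimals put its ratio of means between 0.7 and 1.43. Of the 50-base words of Rhox6 transcripts, 16.5% also occur in Rhox9, and 6.28% of those of Rhox9 occur in Rhox6, so reads may have been split between them. The median of the 346 tested genes of chromosome X was -0.03.

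Of the 40 further Rhox rows 36 were listed at 0 in every library and 4 were tested. Of these 4, 3 fell and 0 rose. Over all tested genes 5.79% were lower and 5.14% higher, and on chromosome X, which holds the 4, 8.67% were lower and 2.6% higher. Rhox2a, among the 3, passed the filter on low values only through WT, so its fall was not independent of that filter. Rhox5, the founding member of the cluster, had values of 35 and 38 in Myh9 KO cells and 62 and 61 in WT cells. It fell by 0.74 on the log2 scale (SE 0.05, limma adjusted p = 0.0206), and its adjusted p was 0.147 without WT 1 and 0.143 without WT 2. Rhox13 had 1 and 1 in Myh9 KO cells and 3 and 3 in WT cells, and Rhox2a, 1 of several near-identical copies, was listed at 0 in Myh9 KO cells and had 2 and 2 in WT cells. Both lost their call with either WT library left out, at adjusted p of 0.121 and 0.12 for Rhox13 and 0.0815 and 0.0788 for Rhox2a without WT 1 and WT 2 in turn. Rhox1, with 4 and 3 in Myh9 KO cells and 6 and 6 in WT cells, was not called.

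Keratin 8 and keratin 18 pair into the filaments of simple epithelia and are among the first keratins of the trophectoderm. Their genes lie 23873 bases apart on chromosome 15, which also holds Myh9 and whose 441 tested genes had a median log2 fold change of 0.00. Krt18 (ENSMUSG00000023043, mm10 102028216 to 102032026, plus strand), the type I partner, had values of 35 and 37 in Myh9 KO cells and 23 and 20 in WT cells. Krt18 rose, with a ratio of means of 1.67 and a rise of 0.72 on the log2 scale (SE 0.09, adjusted p = 0.0486 in limma and 0.0017 with random decimals). The fit on deposited values sat close to the threshold, and its adjusted p was 0.189 without Myh9 KO 1, 0.224 without Myh9 KO 2, 0.0924 without WT 1 and 0.121 without WT 2. The fold with 1 library left out stayed between 0.62 and 0.82 on the log2 scale.

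Krt8 (ENSMUSG00000049382, mm10 101996711 to 102004342, minus strand), the type II partner, had values of 53 and 52 in Myh9 KO cells and 37 and 41 in WT cells. The groups were well apart, but Krt8 was called by the fit with random decimals alone (adjusted p = 0.00781) and missed the threshold in the other (log2 fold change 0.42, SE 0.07, limma adjusted p = 0.064). Its fold had a 95% interval of 1.14 to 1.57. Of the 50-base words of Krt8, 29.7% occur in other genes, namely the pseudogene Krt8-ps, which was listed at 0 in every library, and the overlapping predicted gene Gm36026. The ratio of the Krt8 value to the Krt18 value was 1.51 and 1.41 in Myh9 KO cells and 1.61 and 2.05 in WT cells. These ratios did not overlap between groups, but with 2 libraries against 2 an exact two-sided permutation test cannot give a p below 0.333.

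Krt19, a smaller type I keratin of simple epithelia (ENSMUSG00000020911, mm10 chromosome 11, 100140810 to 100148665, minus strand), had values of 3 and 1 in Myh9 KO cells and 2 and 2 in WT cells. The Myh9 KO libraries lay on either side of WT, and the 95% interval of the fold, 0.328 to 2.71, gives no direction (limma adjusted p = 0.955). Of 52 other keratin rows 49 were listed at 0 in every library, among them Krt7, a further trophectoderm keratin. The tested ones, Krt42 (27 and 25 in Myh9 KO cells, 31 and 33 in WT cells) and Krt17 (3 and 3 in Myh9 KO cells, 5 and 5 in WT cells), were not called by both fits, and each had lower values in Myh9 KO cells. Krt17 was called lower on deposited values alone (limma adjusted p = 0.00406, and 0.0922 with random decimals), and Krt42 by neither fit.

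The sequences before the RefSeq starts of the 3 genes that rose and of Krt8, the neighbour and partner of Krt18, are shown to compare their starts as RefSeq gives them. The RefSeq start of Esx1 lies inside the longer gene span given above, so its window is not upstream of that whole span. Each is the 250 bases before the RefSeq start on the gene's strand (RefSeq, GRCm38.p6), 5′ to 3′, and capitals mark the single match to a searched motif, GCCNNNGGC of AP-2 factors, in Krt18. They lie at chr9:118477939-118478188 on the plus strand for Eomes, chrX:137120327-137120576 on the minus strand for Esx1, chr15:102027966-102028215 on the plus strand for Krt18 and chr15:102004343-102004592 on the minus strand for Krt8.
Eomes: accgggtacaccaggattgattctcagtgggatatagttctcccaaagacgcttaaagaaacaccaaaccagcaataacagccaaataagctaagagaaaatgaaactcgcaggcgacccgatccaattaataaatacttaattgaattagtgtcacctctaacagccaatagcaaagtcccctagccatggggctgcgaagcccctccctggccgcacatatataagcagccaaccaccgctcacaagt
Esx1: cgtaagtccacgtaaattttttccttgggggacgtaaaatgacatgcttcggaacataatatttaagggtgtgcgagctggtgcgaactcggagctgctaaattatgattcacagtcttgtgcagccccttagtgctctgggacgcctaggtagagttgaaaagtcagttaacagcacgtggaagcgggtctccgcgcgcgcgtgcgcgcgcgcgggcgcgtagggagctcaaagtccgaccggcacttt
Krt18: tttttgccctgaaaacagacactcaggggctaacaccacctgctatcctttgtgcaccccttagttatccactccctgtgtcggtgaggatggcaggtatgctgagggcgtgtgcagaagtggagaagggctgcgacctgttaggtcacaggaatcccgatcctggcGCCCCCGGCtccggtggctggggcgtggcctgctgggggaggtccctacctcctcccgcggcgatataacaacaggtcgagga
Krt8: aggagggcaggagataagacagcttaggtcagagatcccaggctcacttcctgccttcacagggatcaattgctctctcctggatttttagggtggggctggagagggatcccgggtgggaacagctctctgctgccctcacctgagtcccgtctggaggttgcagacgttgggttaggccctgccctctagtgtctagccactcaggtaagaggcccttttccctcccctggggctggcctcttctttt
RefSeq windows were matched for 5 of the 10 genes, these 4 and Cdx2. On both strands, GCCNNNGGC was found in Krt18 and Cdx2 and in 13.7% of 32851 windows of the same length. GGAATG of TEAD factors (12.6% of all windows), AGGTGTGA of T-box factors (1.12%), GGGCGG of the GC box (32.7%) and TATAAA (12.4%) had no match in the 5 windows, which says only that these letters are not in them. None of these motifs overlaps another in the 5 windows. GC content was 46.4% for Eomes, 54% for Esx1, 60.4% for Krt18 and 58% for Krt8, with 8, 24, 12 and 3 CpG dinucleotides, against medians of 52.4% and 6 over all windows. The 3 genes that rose thus shared none of the 5 motifs in these windows.

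**Figure D3:**
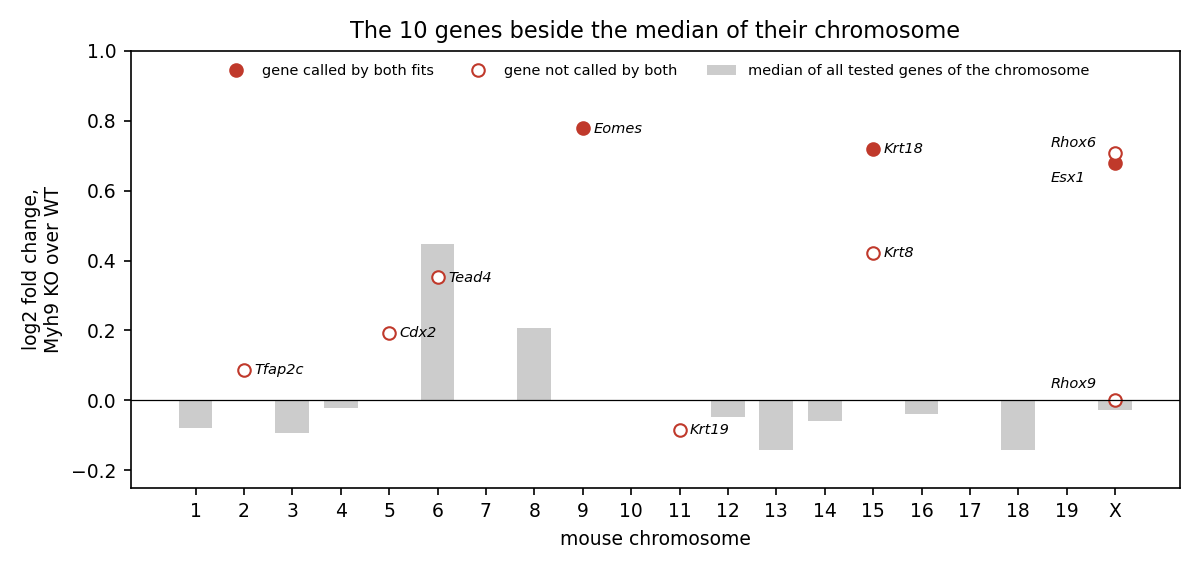
Log2 fold change of each of the 10 genes (points, Myh9 KO over WT, filled where both fits called the gene) above the median of all tested genes of its chromosome (grey bars). Tead4 lies below the chromosome 6 median of 0.45, whereas Eomes, Krt18 and Esx1 stand at 0.68 to 0.78 on chromosomes with medians of -0.03 to 0.00.

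Companion lists of genes with related roles, drawn up with earlier results of these data known, held 46 tested genes once the 10 were left out. Of these, 4 were higher (5.14% of all tested genes) and 6 lower (5.79% of all tested genes), with a median log2 fold change of 0.00. Other regulators of the trophectoderm gave 0 calls in 13 tested genes by both fits, with 1 higher and 0 lower by limma on deposited values and 1 higher and 1 lower with random decimals. Tead2, a further TEAD factor, had 148 and 161 in Myh9 KO cells and 141 and 136 in WT cells, and Elf3, an epithelial ETS factor, had 93 and 103 in Myh9 KO cells and 104 and 103 in WT cells. Gata3, which acts beside Cdx2 in trophectoderm, had 3 and 3 in Myh9 KO cells and 2 and 1 in WT cells (limma adjusted p = 0.198). Elf5, which stabilizes the trophoblast stem cell state, was listed at 0 in every library. A pair of regulators named here after their values were seen, Gata2 and Id2, passed with random decimals alone, in opposite directions. Gata2, a trophoblast GATA factor, had 18 and 27 in Myh9 KO cells and 10 and 8 in WT cells. It lies on chromosome 6 and was called with random decimals (adjusted p = 0.00298) but not on deposited values (adjusted p = 0.11). With the median of that chromosome subtracted, the log2 fold change of Gata2 went from 1.21 to 0.77. The adjusted p was then 0.205 in limma and 0.0279 with random decimals. Id2, an inhibitor of bHLH factors, had 11 and 10 in Myh9 KO cells and 14 and 18 in WT cells and was called lower with random decimals (adjusted p = 0.0271) but not on deposited values (adjusted p = 0.152).

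Among 17 tested genes of the blastocyst epithelium 2 rose and 1 fell (against 5.14% and 5.79% of all tested genes), with a median log2 fold change of 0.15. The single fall is near the share over all tested genes. Cldn6, a tight junction claudin, had 20 and 20 in Myh9 KO cells and 13 and 13 in WT cells (log2 fold change 0.59, SE 0.02, limma adjusted p = 0.00557). Its SE is small because its replicates were equal whole numbers. Lgals3, the gene of galectin-3, had 78 and 83 in Myh9 KO cells and 59 and 60 in WT cells (log2 fold change 0.43, limma adjusted p = 0.0327), and its adjusted p was 0.0573 without Myh9 KO 2, 0.189 without WT 1 and 0.182 without WT 2. Fabp3, a fatty acid binding protein, fell, with 208 and 207 in Myh9 KO cells and 355 and 345 in WT cells (log2 fold change -0.75, SE 0.02, limma adjusted p = 0.00406).

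Among 25 placental genes 10 were tested, and 13 were listed at 0 in every library. Of the 10 tested, 2 rose and 2 fell (against 5.14% and 5.79% of all tested genes), with a median log2 fold change of 0.14. The 13 listed at 0 included Hand1, the factor of trophoblast giant cells, Gcm1, Tpbpa, Prl3d1 and the syncytin genes Syna and Synb. Ascl2, an imprinted factor of the spongiotrophoblast, had 6 and 6 in Myh9 KO cells and 3 and 5 in WT cells (limma adjusted p = 0.304). Cdkn1c, an imprinted cell cycle inhibitor named after its values were seen, had 0 and 1 in Myh9 KO cells and 4 and 2 in WT cells, and was called lower with random decimals alone (adjusted p = 0.0484). It passed the filter on low values only through WT. Peg10, an imprinted retrotransposon-derived gene needed for the placenta, rose to 49 and 51 in Myh9 KO cells, against 23 and 23 in WT cells (limma adjusted p = 0.00406). It also lies on chromosome 6, and its log2 fold change of 1.09 compares with the chromosome's median of 0.45. With that median subtracted Peg10 had a log2 fold change of 0.64 and was called (adjusted p = 0.0108 in limma and 0.00175 with random decimals). The part of the chromosome-wide shift in its value was not tested further. Its adjusted p was 0.0509 without WT 1 and 0.0518 without WT 2.

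Phlda2, an imprinted gene that restrains placental growth, rose to 24 and 23 in Myh9 KO cells, against 13 and 12 in WT cells (log2 fold change 0.86, SE 0.06, limma adjusted p = 0.018). With 1 library left out its adjusted p was 0.105 without Myh9 KO 1, 0.103 without Myh9 KO 2, 0.0634 without WT 1 and 0.0722 without WT 2. Tfpi, an inhibitor of coagulation, fell to 13 and 12 in Myh9 KO cells, against 20 and 20 in WT cells (log2 fold change -0.64, limma adjusted p = 0.0246), and its adjusted p was 0.154 with WT 1 or with WT 2 left out. Pcsk6, a proprotein convertase, fell to 49 and 52 in Myh9 KO cells, against 64 and 67 in WT cells, at the threshold (limma adjusted p = 0.0498). Its adjusted p was 0.156 without Myh9 KO 1, 0.136 without Myh9 KO 2, 0.188 without WT 1 and 0.218 without WT 2.

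**Figure D4:**
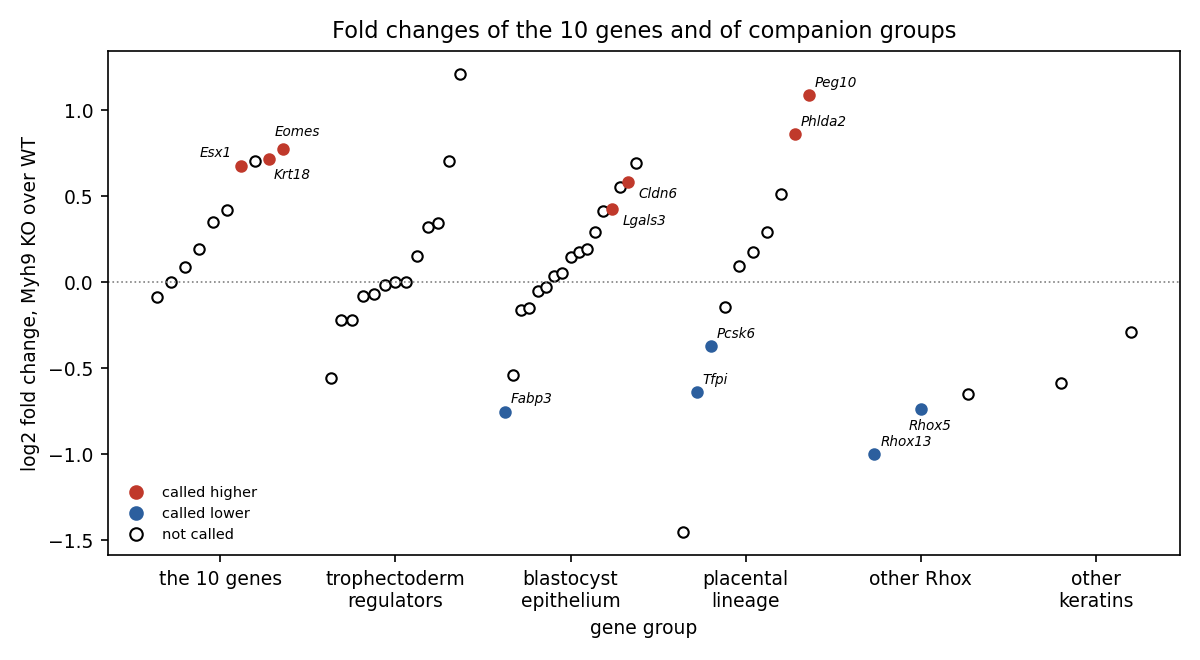
Log2 fold changes, Myh9 KO over WT, of the 10 genes and of tested genes in 5 companion groups, each point a gene (red called higher, blue called lower, open not called by both fits). Rhox2a, listed at 0 in Myh9 KO, is left out. The called Rhox genes of the companion group lie below 0, whereas Eomes, Esx1 and Krt18 lie between 0.68 and 0.78.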

How the data were processed

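Per the labels' protocols, TRIzol RNA was enriched for mRNA with oligo-dT beads, fragmented and reverse transcribed from random hexamers. The deposited values are a score: whole numbers with nearly equal sums per library, so the authors had normalized them and dropped the decimals, and whether they are per gene length is not stated. Per the submitters' processing notes, Bowtie2 2.2.5, RSEM 1.3.0, bcl2fastq and the builds mm10 and hg38 were used, with no role given. Of the 50600 identifiers 50376 were found in GENCODE vM21 (mm10), 92.91% of them with the same coordinates.

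Myh9 KO was compared with WT with limma 3.58.1 in R 4.3.3, using its trend option, on log2(value + 1) for genes whose mean reached 1, with Benjamini-Hochberg adjustment. Because equal whole numbers leave no spread, the fit was repeated with a uniform number between 0 and 1 added to every value (median adjusted p of 25 draws), and a call needs an adjusted p under 0.05 in both. Fold changes on this scale understate the change of low values. Limits from the decimals let each mean lie from 0.5 below to 1 above its printed value. This allows rounding in 1 group and cutting in the other, so these outer limits are wider than either rule alone gives. The fits were tested on simulated data. Replicate numbers were not used as pairs. Companion lists were named in the design, and from each the up to 4 called genes per direction with the smallest p were given, or else the 2 with the highest values, and Gata3, Elf5, Hand1, Krt7, Ascl2, T and Pou5f1 in every case. The 10 genes and all lists were chosen with earlier results of these data known. Alternatives covered pseudocount, filter, scaling, decimals, replicate block, each library left out, chromosome medians and GC content.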

Additional observations from a re-analysis of the deposited data

How the results depend on the processing

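Eomes was called higher under every alternative except the replicate block. The number of the 10 genes called higher was 3, and it was 2 to 4 under the other pseudocounts, filters, scalings, decimals, chromosome and GC content settings, 1 to 2 with a library left out, and 0 with the replicate block. No setting called any of the 10 lower. With the replicate block the genes called in all were 10 higher and 44 lower, against 577 and 650, and those of the companion lists 0 higher and 1 lower, against 4 and 6, and Eomes had an adjusted p of 0.0723. Of the called genes named singly, Rhox2a alone kept its call under the block. The labels give the numbers no shared source, and the replicate differences of both groups correlated at 0.041 over genes, so the numbers were not taken as pairs. Leaving out a library gave 131 to 340 genes higher and 192 to 415 lower in all, and 1 to 3 higher and 1 to 6 lower in the companion lists. Random decimals alone called 1245 genes higher and 1357 lower, and 8 and 10 companion genes. Centring within GC content bins called 1106 and 1205, and 8 and 12 companion genes. Median ratio scaling called 912 genes higher and 8 companion genes higher. The cause of these moves was not tested. Krt8 was called with a mean value of at least 5 (adjusted p = 0.046), median ratio scaling (0.0261) and GC bins (0.0403). Krt18 was lost with no filter (0.0509), quantile normalization (0.0634) and chromosome medians subtracted (0.0506). Log2 fold changes changed sign for Krt19 (-0.585 to 0.42 with a library left out, the highest without Myh9 KO 2), for Tfap2c (-0.0025 to 0.1781, the lowest without WT 1), for Tead4 with chromosome medians subtracted (-0.10) and for Pou5f1 with GC bins (-0.10, adjusted p = 0.216). None of these was called. With GC bins both fits also called Krt17 (-0.695, adjusted p = 0.0374), Krt42 (-0.40, 0.0407) and Gata2 (1.09, 0.0222), and median ratio scaling called Gata2 (0.0479). Rhox13 was lost with quantile normalization (0.0554) and chromosome medians subtracted (0.0518), and Rhox2a with quantile normalization (0.0644). Pcsk6 was lost with a pseudocount of 0.5 (0.0505), no filter (0.0525) and chromosome medians subtracted (0.0517). Cdx2 had a log2 fold change of 0.07 with GC bins. Scalings moved the median of all genes by at most 0.008. Unknown depth and dropped decimals limit what can be said of low values.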
